A study of Mus musculus with 2 samples.

Results

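Heat shock chaperones of the cytosol and of the mitochondria, with their co-chaperones and regulators, were read on the arrays of splenocytes from mice immunized against GPI (glucose-6-phosphate isomerase), which develop arthritis, and from control mice. The list held 46 genes, and its members were chosen by name from 5 classes of chaperones: stress-inducible, constitutive, mitochondrial, the CCT chaperonin, and co-chaperones and regulators. A gene was measured where a probe set carried its symbol and no other, which held for 44 of the 46 genes, of 12393 genes measured in all. Hsp90ab1 and Hsf1 had no such probe set and are named only. The list was drawn up with earlier results of these arrays known, among them that Hspa1a and Hspa1b had some of the highest ratios, so the ratios of the members are a description and support nothing by themselves.

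Both groups were male DBA/1 mice of 6 to 8 weeks, a strain used for arthritis models, and both antigens were given in complete Freund's adjuvant, which itself provokes inflammation. The GPI-immunized mice received 300 μg of GPI-GST, human GPI fused to the carrier glutathione S-transferase (GST), and the control-immunized mice received 100 μg of GST alone. Splenocytes were taken on day 10 from 3 spleens per group, and whether RNA of the 3 was pooled is not stated. Each group has 1 array, so there is no replicate, no test and no p-value, and every ratio below describes these 2 arrays. A splenocyte preparation mixes B cells, T cells, myeloid cells and red cell precursors, so that more cells of a type and more RNA per cell cannot be told apart.

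Chaperones keep other proteins from clumping and help them fold. Hsp70 proteins hold unfolded stretches in a cycle driven by ATP, in which J-domain proteins bring the client and start ATP hydrolysis, and nucleotide exchange factors of the Hsp110 and BAG families make the Hsp70 let go. Hsp90 takes over late folding intermediates such as kinases and steroid receptors with the help of many co-chaperones, and the ring-shaped chaperonins, CCT in the cytosol and Hsp60 with its lid Hsp10 in mitochondria, fold proteins inside a chamber. When unfolded proteins accumulate, the transcription factor HSF1 forms trimers and binds heat shock elements, runs of inverted GAA units, in the promoters of the inducible members of these families. Leukocytes of the spleen carry the constitutive chaperones at all times, and stimulation or raised temperature is known to add the inducible ones.

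Signals are intensities on a linear scale, with medians over probe sets of 48.65 (control) and 51.8 (GPI-immunized). Bacterial control probe sets, which served to judge the background, reached 14.1. A gene was represented by its brightest probe set, and it was counted only if at least 1 array showed it at 50.2 or more (the 50th percentile over both arrays), as 6961 genes did. Of these, 155 had a ratio of 2 or more (2.23%) and 31 a ratio of 0.5 or less (0.445%), and division of the arrays by their medians made this 110 and 48. The log2 ratios of the 2 brightest probe sets of a gene, both above the filter, were compared (2538 pairs, 1 per gene). Their differences gave an SD of 0.26 for the log2 ratio of a single probe set. This is a factor of 1.20, a technical yardstick that leaves out dimmer probe sets and holds no variation between mice or hybridizations. It is 1 SD and not a limit, so probe sets alone can put a ratio beyond it. The difference between 2 probe sets spreads more widely. Over all bright probe sets of a member, those above the filter, the range of log2 ratios ran from 0.04 (Dnajb1) to 1.20 (Dnajb6). The B cell markers Cd79a (2961.3 on the control array) and Ms4a1 (2528.8) and the T cell marker Cd3d (475.1) were well above the background, and 11 of 12 measured markers of either lineage passed the signal filter, as the label splenocyte implies.

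Of the 44 measured chaperone genes, 39 passed the signal filter. Bag3 passed through the GPI-immunized array alone, where it was higher. Among the 39 genes, 34 had a ratio above 1 (57.5% of all genes did), 11 were at least 1.5-fold higher (7.05% of all genes) and 0 at least 1.5-fold lower (3.23% of all genes). The 5 genes at least 2-fold higher (2.23% of all genes were) comprised Hspa1a, Hspa1b, Hsph1, Dnaja1 and Stip1, and 0 members were 2-fold lower. The median log2 ratio was 0.35 over the members and 0.06 over all genes. The classes differed in their medians, with 0.97 for the stress-inducible genes, 0.38 for the mitochondrial genes, 0.32 for CCT, 0.29 for the co-chaperones and regulators and 0.01 for the constitutive genes. Scaling by the median, by quantiles or by loess left 33 of the 39 genes above 1, and scaling to the hybridization controls described below left 38, all but Dnajb2. Without the stress-inducible class, 26 of 30 members had a ratio above 1, with a median log2 ratio of 0.29.

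**Figure D1:**
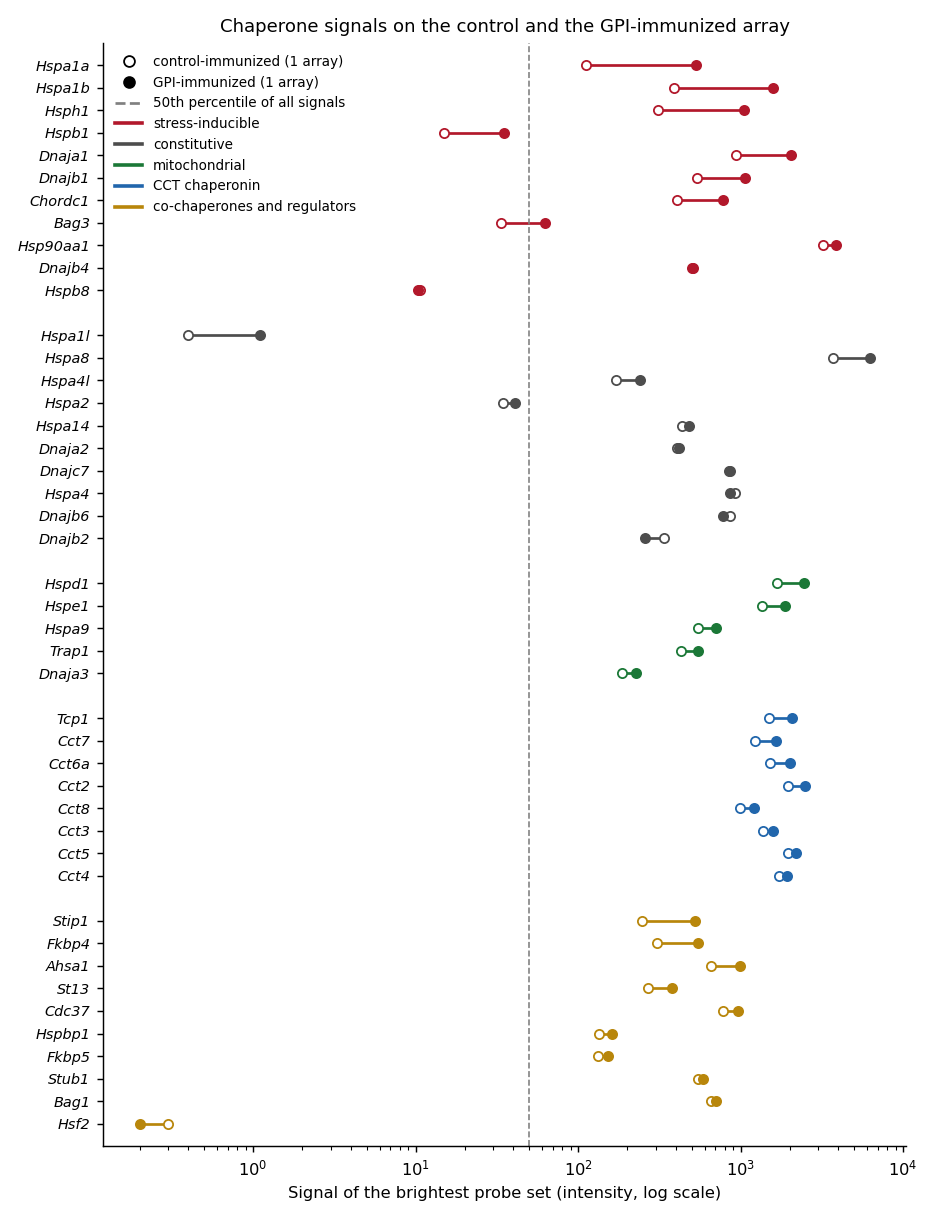
Signal of the brightest probe set of each measured chaperone gene (x axis, intensity on a log scale) in control (open circles) and GPI-immunized mice (filled circles), grouped by class, with the 50th percentile of all signals (50.2) as a dashed line. The widest gaps among bright genes belong to Hspa1a (111.8 and 531.2) and Hspa1b (389.5 and 1584), while all 8 CCT genes lie far above the line with narrow gaps.

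The stress-inducible class held the highest ratios, and within it the inducible Hsp70 genes came first. Hspa1a gave a signal of 111.8 in control-immunized and 531.2 in GPI-immunized mice. The ratio was 4.75, which ranked 10 of 6961 genes. Hspa1b gave 389.5 and 1584, a ratio of 4.07 and rank 14. Both genes encode the inducible cytosolic Hsp70, and their coding sequences are nearly the same, so each probe set may read both transcripts, which was not tested. The other probe sets of Hspa1b showed wider gaps, from 280.5 to 1721 (6.14-fold) and from 187.9 to 1325.2 (7.05-fold), so that the brightest probe set gave the lowest of its 3 ratios.

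The promoters of Hspa1a and Hspa1b are shown because these genes had the 2 highest ratios of the list and nearly the same upstream sequence. Over the windows of 250 bases before and 50 after the annotated starts (RefSeq, GRCm38.p6), 296 of 300 bases were identical, although the starts lie 12918 bases apart on chromosome 17. The stretch below, at positions -150 to -3 counted from the start, is from the minus strand at chr17:34972159-34972306 for Hspa1a, and the same letters stand at chr17:34959241-34959388 for Hspa1b. Capitals mark the letters of a heat shock element pair, here 2 inverted units with 2 bases between them (GAANNTTC or TTCNNGAA, each its own reverse complement, so that a search of 1 strand covers both), found at -104 to -97.
Hspa1a: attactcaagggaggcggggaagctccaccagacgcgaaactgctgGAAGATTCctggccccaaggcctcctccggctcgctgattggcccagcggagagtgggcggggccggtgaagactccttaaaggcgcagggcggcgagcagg
Such a pair was present in 15.1% of the 32851 promoter windows of the whole RefSeq table, and a match describes letters, not a bound site. Another gene of this cluster, Hspa1l, starts 547 bases from Hspa1a on the opposite strand, and its window holds no pair. Hspa1l is a testis Hsp70 gene, and it stayed within the background here with signals of 0.4 in control and 1.1 in GPI-immunized splenocytes.

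Hsph1 encodes Hsp105, an Hsp110 protein that acts as nucleotide exchange factor for Hsp70. Its signal was 312.2 in control-immunized and 1050.8 in GPI-immunized mice (3.37-fold, rank 21). The second probe set went from 271.2 to 730.1, which is 2.69-fold, so both showed a gap far beyond the yardstick. Its promoter is shown because it carries heat shock letters on either side of the start. The first stretch, chr5:149636316-149636375 on the minus strand, ends 1 base before the start, and the second, chr5:149636286-149636315, begins at it. Capitals mark a pair in the first and a triplet in the second, 3 alternating units each 2 bases apart, which 0.603% of all windows hold.
Hsph1: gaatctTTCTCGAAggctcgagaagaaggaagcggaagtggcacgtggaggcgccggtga
Hsph1 triplet: gtaaaatgctgcagaTTCTGGAAAGTTCtc

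The inducible J-domain proteins followed. Dnaja1 encodes a farnesylated partner of cytosolic Hsp70, and its signal went from 941.8 in controls to 2033.4 after GPI, a ratio of 2.16. A dimmer probe set of Dnaja1 gave 313 and 625.2, a ratio of 2.0. Dnajb1 encodes Hsp40, the classical heat-induced J-domain protein. It went from 540 to 1056.6 (1.96-fold) on the brightest probe set and from 477.3 to 958.7 (2.01-fold) on the other. Dnajb4, a close relative of Dnajb1, stood apart from this class with signals of 507.3 and 499.3, a ratio of 0.984, and 0.782 on its other probe set, although scaling to the hybridization controls put the first at 1.12. It was the only member with at least 2 bright probe sets that were all below 1.

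Dnaja1 and Chordc1 are shown next as a single pair and a long run of the same letters. The Dnaja1 stretch is chr4:40722308-40722387 on the plus strand, with a pair at -124 to -117 from one of its annotated starts. The windows of the other Dnaja1 starts hold no pair. The Chordc1 stretch is chr9:18292259-18292288 on the plus strand and spans the start, and its capitals mark 5 alternating units in a row, which contain overlapping runs of 4 units. A run of 4 units was found in 0.0244% of all windows and in those of 3 members, Chordc1, Hspd1 and Hspe1.
Dnaja1: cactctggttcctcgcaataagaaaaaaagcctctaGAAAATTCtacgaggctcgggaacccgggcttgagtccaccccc
Chordc1: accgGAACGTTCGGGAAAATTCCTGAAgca
Chordc1 encodes a zinc-binding co-chaperone of Hsp90, and its signal was 403.8 in control splenocytes and 776.9 after GPI immunization (1.92-fold).

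The remaining stress-inducible genes gave smaller or less certain gaps. Bag3 encodes a partner of Hsp70 that directs clients to autophagy. Its signals were low, 33.7 in controls and 62.7 after GPI, and the log2 ratio of 0.90 became 0.32 when signals below the 50th percentile were raised to it. Hsp90aa1, the inducible cytosolic Hsp90, had signals of 3213.6 and 3837.4, a ratio of 1.19 that lies within the yardstick. Its other probe sets went from 2096.2 to 3381.4 (1.61-fold) and from 680.7 to 1439.8 (2.12-fold), so the size of its gap depends on the probe set, with all 3 higher on the GPI-immunized array. The small heat shock protein genes Hspb1 and Hspb8 did not pass the filter, with 15 and 35.1 for Hspb1 and 10.7 and 10.4 for Hspb8.

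**Figure D2:**
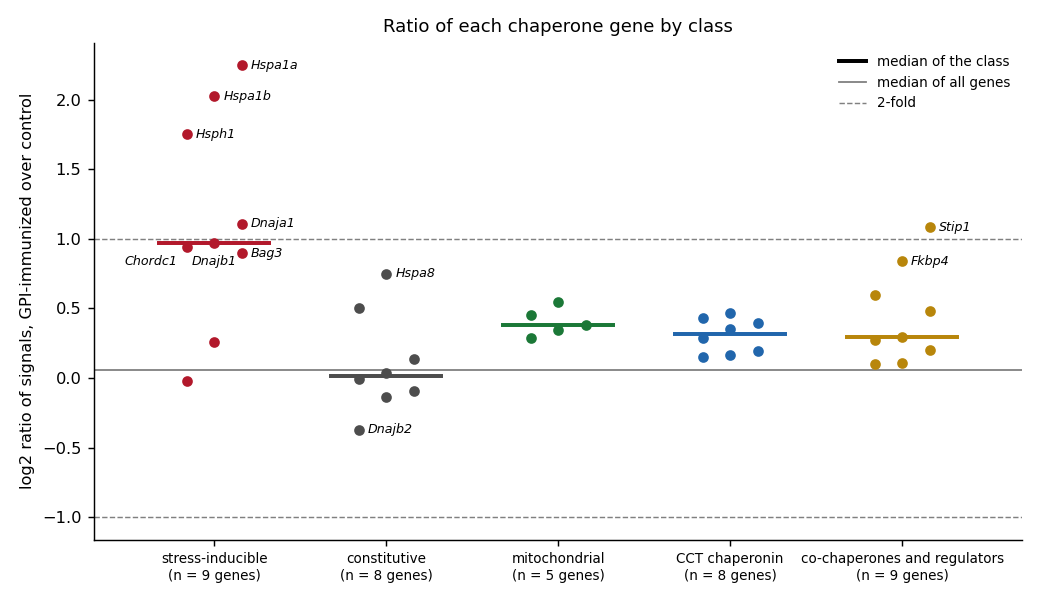
Log2 ratio of signals, GPI-immunized over control (y axis), for the 39 chaperone genes that passed the filter, by class, with the median of each class as a bar, the median of all 6961 genes as a solid line (0.06) and 2-fold as dashed lines. The stress-inducible genes spread from 0.984-fold for Dnajb4 to 4.75-fold for Hspa1a, while the mitochondrial and CCT genes lie in narrow bands above 0.

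The constitutive class, which keeps proteins folded in unstressed cells, had a median near that of all genes. Of its 8 genes above the filter, 4 had a ratio above 1 (57.5% of all genes did). Hspa8 encodes Hsc70, the constant Hsp70 of the cytosol, which also uncoats clathrin vesicles. It was the exception, with 3712.8 in control and 6247.2 in GPI-immunized mice (1.68-fold), and its 4 probe sets ranged from 1.45 to 1.83. Hspa4l, an Hsp110 relative, went from 170 to 241.1 (1.42-fold), and its other probe set gave 1.08.

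The rest of the constitutive genes had ratios from 0.773 to 1.10. Hspa14, a ribosome-associated Hsp70, had signals of 435.2 and 479.4, a ratio of 1.10. Dnaja2, the constitutive relative of Dnaja1, had 405.4 and 415.4, a ratio of 1.02 that fell below 1 after scaling by the median, by quantiles or by loess. The ratio of Dnajc7, a J-domain protein that links Hsp70 to Hsp90, was 0.993 (854.7 and 849.1). Hspa4 (Apg-2, an Hsp110 protein) had 916.9 and 858.1, a ratio of 0.936, with 1.62 and 1.24 on dimmer probe sets. Dnajb2, which hands clients to the proteasome, had the lowest ratio of the list, 0.773, with signals of 335.4 and 259.1. Hspa2, a germ cell Hsp70, did not pass the filter (34.4 and 41.1).

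Dnajb6 encodes a J-domain protein that holds back protein aggregation, and it had 860.7 in control splenocytes against 783.3 after GPI, a ratio of 0.910. Its 4 bright probe sets ranged from 0.773 to 1.78, the widest disagreement in direction within the class. Its promoter is shown because it held a triplet of heat shock letters although the gene was not higher on the brightest probe set. The stretch is chr5:29735818-29735897 on the plus strand and ends 1 base before the start, with the triplet in capitals.
Dnajb6: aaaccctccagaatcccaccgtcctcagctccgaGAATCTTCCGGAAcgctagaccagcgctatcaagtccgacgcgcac

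All 5 mitochondrial chaperones were higher on the GPI-immunized array (57.5% of all genes were), by 1.22-fold to 1.46-fold. Of the 5, 0 reached 1.5-fold (7.05% of all genes did). Hspd1 encodes Hsp60, the chaperonin ring of the mitochondrial matrix, and it gave 1672.2 in control-immunized and 2444.7 in GPI-immunized mice, a ratio of 1.46. Hspe1 encodes its lid Hsp10, and it had 1361 and 1866, a ratio of 1.37, with 1.17 on a second probe set. The matrix Hsp70, Hspa9 (mortalin), which pulls imported proteins through the inner membrane, had 543.6 and 707.4, a ratio of 1.30. All 5 mitochondrial genes exceeded the yardstick factor on the brightest probe set in unscaled signals. Dnaja3 fell within it after scaling by the median, by quantiles or by loess (log2 ratios of 0.19, 0.21 and 0.21). Scaling by the median also put Trap1 within it (0.25). Trap1, the mitochondrial Hsp90, had 430.1 and 546.1 (1.27-fold), but a second probe set was lower, at 0.906. Dnaja3, the J-domain partner of Hspa9, had 185.1 and 225.8 (1.22-fold), and 1.46 on a second bright probe set.

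Hspd1 has a further annotated start, whose window at chr1:55088194-55088493 holds no pair and is left aside here. From the starts used, Hspd1 and Hspe1 are transcribed in opposite directions, 216 bases apart on chromosome 1 (55087932 and 55088148, GRCm38.p6). The 2 chaperonin genes thus share the sequence between them. It is shown because the same run of 4 heat shock units, at chr1:55088059-55088076, fell in the windows of both. The stretch below is the plus strand at chr1:55088018-55088117, upstream of Hspe1, with the 4 units in capitals. Counted from the start of Hspe1 the run lies at -89 to -72, and from that of Hspd1 at -144 to -127.
Hspe1: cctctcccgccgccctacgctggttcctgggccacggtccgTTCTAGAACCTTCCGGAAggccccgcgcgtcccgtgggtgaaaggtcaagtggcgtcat
The ratios of the 2 genes on their brightest probe sets were 1.46 and 1.37, and the second probe set of Hspe1 gave 1.17. Whether the shared run bears on these ratios was not tested.

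The CCT chaperonin, a double ring of 8 different subunits that folds actin and tubulin, showed a narrow range. All 8 subunit genes were higher on the GPI-immunized array (57.5% of all genes were), by 1.11-fold to 1.38-fold. Of the 8, 0 reached 1.5-fold (7.05% of all genes did). Tcp1, the alpha subunit, led with 1494 in controls and 2064.6 after GPI (1.38-fold). Cct7 (eta) had 1232.5 and 1658.7, a ratio of 1.35, and 1.74 on a second probe set. The zeta subunit Cct6a had 1522.1 and 1998.2 (1.31-fold), and Cct2 (beta) had 1957 and 2494.9 (1.27-fold).

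Cct8 (theta) gave 991.6 and 1208.2, a ratio of 1.22. It fell within the yardstick after scaling by the median, by quantiles or by loess (log2 ratios of 0.19, 0.19 and 0.23). Cct2 fell just within it after scaling by the median (0.258). The ratios of Cct3, Cct5 and Cct4 lay within the yardstick in unscaled signals as well. Cct3 (gamma) had 1380.7 and 1581.7 (1.15-fold), and its 5 bright probe sets ranged from 0.758 to 1.64. For Cct5 (epsilon) the signals were 1956.1 and 2196.9 (1.12-fold), and for Cct4 (delta) 1731.9 and 1925.1 (1.11-fold). All 8 CCT genes and all 5 mitochondrial genes kept a ratio above 1 after scaling by the median, by quantiles, by loess and to the hybridization controls. When all probe sets of a gene were averaged, dim ones included, Cct8 came to a log2 ratio of -1.19 and Dnaja3 to -0.11.

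Of the 10 co-chaperones and regulators measured, 9 passed the filter and all 9 had a ratio above 1 (57.5% of all genes did). Stip1, also called Hop, bridges Hsp70 and Hsp90 and had the highest ratio, 2.12, from signals of 246.6 in controls and 522.8 after GPI. After division of each array by its median Stip1 was at 1.99, under 2-fold. Fkbp4 (FKBP52), a peptidyl-prolyl isomerase that works with Hsp90 on steroid receptors, had 306.7 and 548.9, a ratio of 1.79. Ahsa1, which speeds up ATP hydrolysis by Hsp90, had 656.5 and 994.6, a ratio of 1.51 at the edge of the 1.5-fold threshold.

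St13 (Hip), which stabilizes the client-bound form of Hsp70, went from 269.7 to 377.3 (1.40-fold). Cdc37, which loads kinases onto Hsp90, went from 781.5 to 958.3 (1.23-fold). Hspbp1, a nucleotide exchange factor, had 134.6 and 162.3 (1.21-fold). After scaling by the median, by quantiles or by loess, both Cdc37 and Hspbp1 fell within the yardstick. The log2 ratios were then 0.20, 0.21 and 0.23 for Cdc37 and 0.18, 0.18 and 0.19 for Hspbp1. The other 3 lay within the yardstick in unscaled signals as well. They were Fkbp5, a glucocorticoid-induced isomerase (132.7 and 152.5, 1.15-fold), the ubiquitin ligase Stub1 (CHIP; 545.5 and 587.8, 1.08-fold) and the exchange factor Bag1 (657.7 and 706.9, 1.07-fold). Hsf2, a heat shock transcription factor, was in the background on both arrays (0.3 and 0.2).

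Around the 2-fold threshold, Stip1 (2.12) and Dnaja1 (2.16) were just above, and Dnajb1 (1.96) and Chordc1 (1.92) just below. A stricter signal filter at the 75th percentile (219.8) left 36 members, of which the same 5 were at least 2-fold higher (1.81% of all genes under that filter were).

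The list had 93 probe sets, of which 74 were bright, and 62 of these had a ratio above 1. The share of all bright probe sets above 1 was not computed. By brightest probe set, 57.5% of all genes were above 1. For 22 genes at least 2 probe sets were bright, and these all lay above 1 for 15 genes, all below 1 for Dnajb4, and on both sides for 6 genes. At least 2-fold were 10 of the 74 probe sets (2.33% of the 10739 bright probe sets of all genes). The genes on both sides were Hspa4, Hspa14, Dnaja2, Dnajb6, Trap1 and Cct3, and 4 of these belong to the constitutive class. The stress-inducible genes with several bright probe sets, other than Dnajb4, had every bright probe set above 1.

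**Figure D3:**
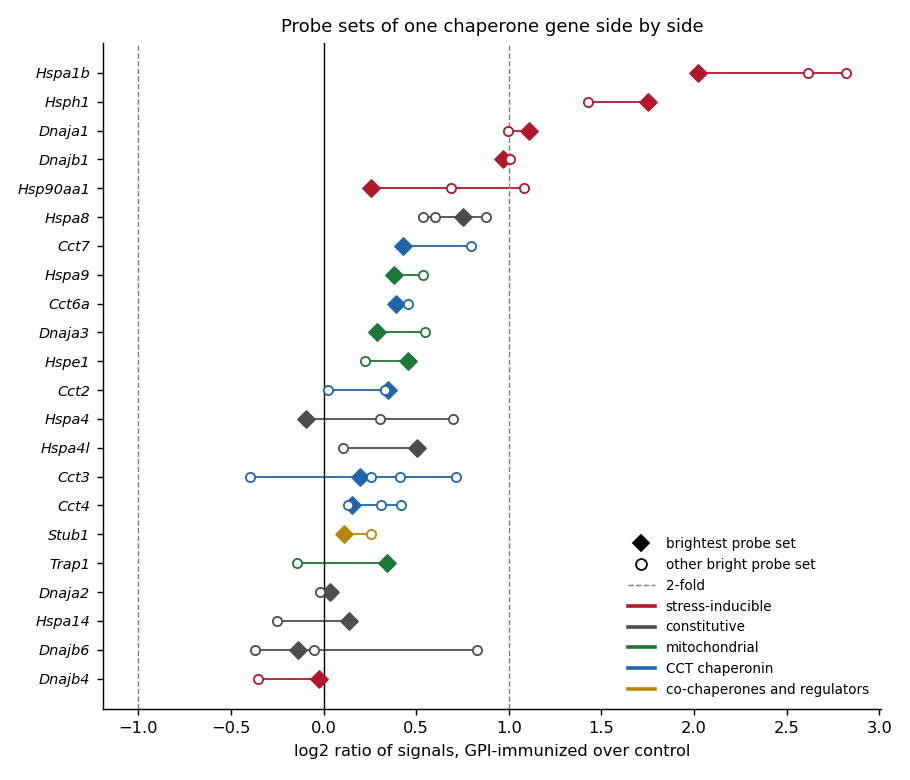
Log2 ratio of signals, GPI-immunized over control (x axis), of every bright probe set of the 22 chaperone genes with at least 2 of them, 1 gene per line, the brightest as a diamond and the others as circles, colored by class. The 3 probe sets of Hspa1b span 4.07-fold to 7.05-fold, all above 2-fold, whereas the 4 of Dnajb6 span 0.773-fold to 1.78-fold.

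Promoter windows were found in the RefSeq table for 39 of the 46 genes, with 50 windows because some genes have several annotated starts. For such genes the stretches printed above come from the window with most pairs, or from that of lowest coordinate where windows tied. Hsp90aa1, Hsp90ab1, Hspa8, Hspa9, Hsf1, St13 and Cct4 had none. The heat shock element pair was present in 20 of the 50 windows (40% against 15.1% of all windows), which belonged to 18 genes. Overlapping windows of Hsph1 and of Dnajb6 hold the same letters. By class a pair was found in 9 of 10 stress-inducible genes, 2 of 4 mitochondrial genes and 3 of 7 CCT genes. It was also found in 3 of 9 co-chaperones and regulators and 1 of 9 constitutive genes. Counted by gene in the same way, 4587 of all 27025 genes with a window held a pair. The 2 mitochondrial genes were Hspd1 and Hspe1, which share the same run. The CCAAT letters, searched on both strands, were in 44% of member windows and 37.4% of all windows, and TATAA, searched on the transcribed strand only, was in 12% and 17.5%. Dnajb1 was the stress-inducible gene without a pair in its window, and Stip1, with a ratio of 2.12, also had none. The median ratio was 1.42 over the 16 genes above the filter with a pair (0.910 to 4.75) and 1.21 over the 18 without (0.773 to 2.12), and the 1.5-fold threshold was reached by 7 and 3 of them. The ranges overlap from 0.910 to 2.12, and the list was selected in part on its highest ratios, so this is a description. It says nothing of binding.

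**Figure D4:**
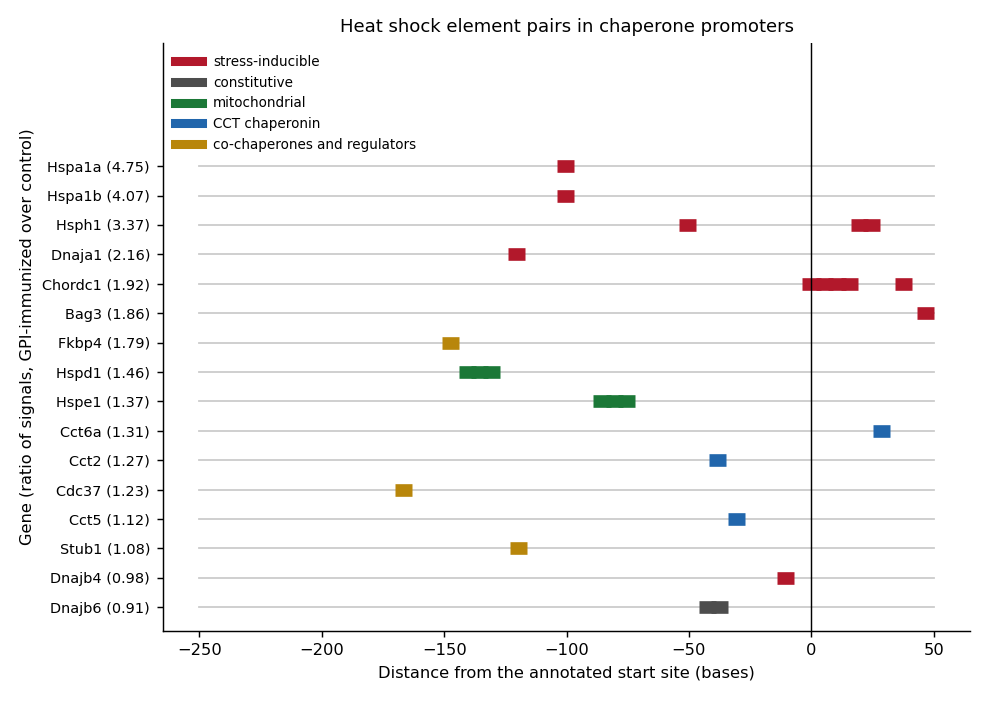
Position of heat shock element pairs (boxes) relative to the annotated start site (x axis, bases) in the promoter windows of the 16 chaperone genes above the filter that hold one, ordered by the ratio of signals given in brackets, 1 window per gene, the one with most pairs. The pairs lie on either side of the start, from -170 in Cdc37 to 50 in Bag3, and runs of overlapping pairs belong to Chordc1, Hspd1, Hspe1, Hsph1 and Dnajb6.

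Other genes of the same chaperone families, in 7 lists, are given beside the members. Of 95 genes listed, 63 passed the filter, and 38 of these had a ratio above 1 (57.5% of all genes did). At least 1.5-fold higher were 3 (7.05% of all genes were). The median log2 ratio was 0.07, against 0.06 over all genes. The same shares of all genes apply to the counts of the single lists below. Among 23 other J-domain proteins, 11 had a ratio above 1 and 0 were 1.5-fold higher, with a median log2 ratio of -0.05. The highest were Dnajc18 (50.6 and 71.6, 1.42-fold), close to the filter, and Dnajb9 (371.6 and 524.7, 1.41-fold), a J-domain protein of the endoplasmic reticulum. The lowest was Dnajc12 (60.3 and 34.2, a ratio of 0.567), which passed through the control array alone. Of 12 other Hsp90 co-chaperones, 0 were 1.5-fold higher and the highest was Ttc1 (1.42). Bag2, an exchange factor that inhibits Stub1, went from 153.5 to 239.3 (1.56-fold). Genes of prefoldin, which delivers actin and tubulin to CCT, and of CCT cofactors had a ratio above 1 in 4 of 7 cases. Their median log2 ratio was 0.06, against 0.32 for CCT. Of 12 other genes of mitochondrial protein quality control, 7 had a ratio above 1, with Clpb at 1.52 and Clpx, a subunit of a matrix protease, at 0.623.

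Genes of neighboring stress programs gave the following values. The 16 genes of the ER chaperone list were all above 1 (57.5% of all genes were), with a median log2 ratio of 0.51. At least 1.5-fold higher were 6 of them (7.05% of all genes were). Among the 6 was Hyou1 (129.7 and 264.5, 2.04-fold), the Hsp110 relative of the endoplasmic reticulum. Another was Xbp1 (1275.6 and 2410.9, 1.89-fold), a transcription factor and not a chaperone. The list shares Xbp1 with the plasma cell markers below, and Hyou1, Dnajb9 and others with the chaperone lists above. Of 11 stress-induced ubiquitin and oxidative stress genes, 3 were at least 1.5-fold higher, Hmox1 (1.73), Atf3 (1.60) and Gadd45b (1.56). Of 2 listed cold-inducible RNA-binding protein genes only Cirbp was measured. It went from 297.9 to 140.8, a ratio of 0.473 (0.445% of all genes were at least 2-fold lower). Cirbp is known to be induced by cold and to be lower at raised temperature. Any link of this value to the chaperone ratios was not tested. Immediate early genes, which respond within minutes to activation of cells, had 9 of 19 above 1 and a median log2 ratio of -0.05. Cell cycle genes had 0 of 23 at 1.5-fold or more, with a median log2 ratio of 0.09.

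Markers of cell types also differed between the arrays. All 15 neutrophil markers above the filter had a ratio above 1 (57.5% of all genes did), and 8 were at least 2-fold higher (2.23% of all genes were). Cxcr2, 1 of the 8, passed through the GPI-immunized array alone (23.5 and 76.6). The signals of all measured neutrophil markers summed to 35434.4 in controls and 52213.9 after GPI. Of the macrophage and monocyte markers that passed, 10 of 11 were above 1. Sums here and below also run over all measured markers, those under the filter included, and were 8735.8 and 11400.3. All 11 B cell markers that passed were below 1 (sums over 12 measured, 18260.1 and 13740.9), as were 10 of 11 T cell markers (sums over 12 measured, 2215.9 and 1627.6). Erythroid markers had 2 of 7 above 1 (sums 18925.4 and 16839.9), and plasma cell markers 4 of 5, with a median log2 ratio of 0.02. Their part in the chaperone ratios was not tested. The RNA quality measures were close on both arrays, with a 3′ to 5′ signal ratio of 1.49 and 1.42 for Actb and of 0.946 and 0.839 for Gapdh. Hybridization controls, which are added in equal amounts, were lower on the GPI-immunized array for 17 of 18 probe sets, with a geometric mean ratio of 0.879. Scaling to them moved the median log2 ratio of all genes from 0.06 to 0.25 and that of the chaperones from 0.35 to 0.54, and the split of all genes at 2-fold to 253 higher and 10 lower.

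**Figure D5:**
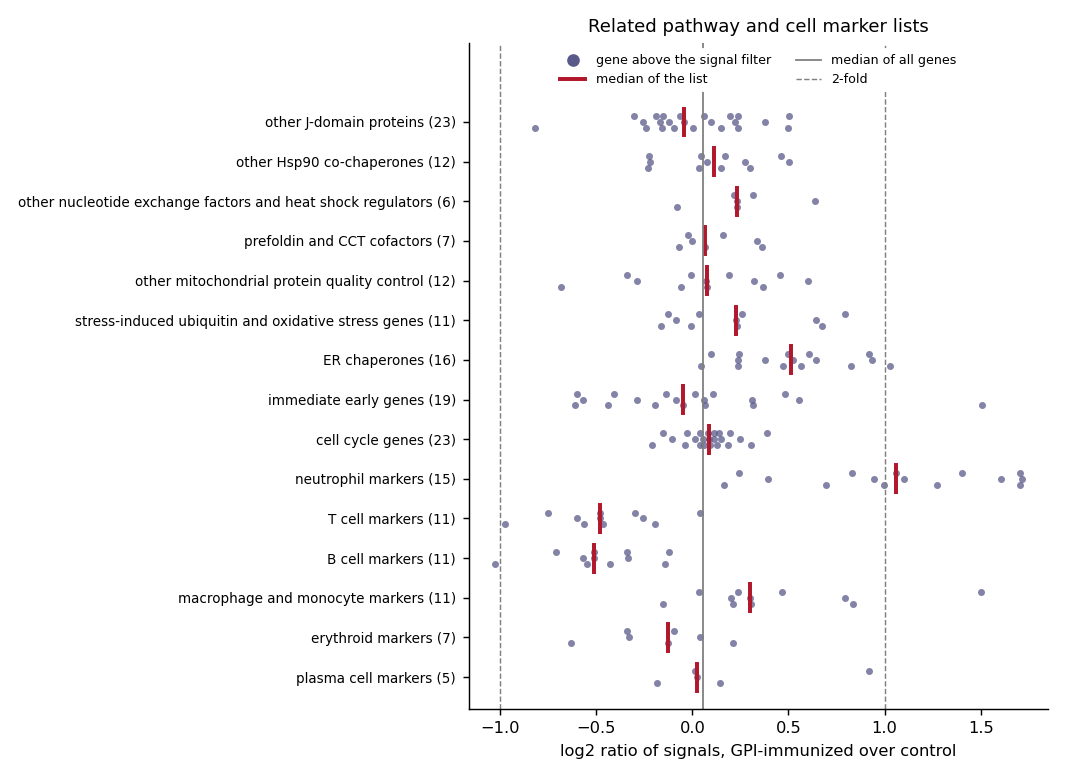
Log2 ratio of signals, GPI-immunized over control (x axis), of genes above the signal filter in related pathway lists and cell marker lists (y axis, number of genes in brackets), with the list median in red, the median of all genes as a solid line (0.06) and 2-fold as dashed lines. The neutrophil markers lie farthest to the right (median 1.06), those of B cells (-0.51) and T cells (-0.48) lie to the left, and the other J-domain proteins center near 0.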

How the data were processed

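Splenocyte RNA of each group was hybridized to 1 Affymetrix mouse 430A array. The authors deposited 1 signal per probe set, an intensity on a linear scale. The sources used here do not state how probes were summarized, scaled or called detected. The labels and the paper describe the labeling of the RNA differently (cDNA and cRNA). The platform annotation supplied gene symbols. Of 22626 probe sets besides 64 controls, 20380 had 1 symbol and 691 had several, which were not named. Gene IDs of all 44 measured members were found in the RefSeq table of GRCm38.p6. The 3 signals of 0 were set to 0.1. Ratios of unscaled signals were taken from each gene's brightest probe set (by mean log2). A gene counted as higher or lower at 2-fold where the higher signal reached the 50th percentile. With 1 array per group no test was run, and the number of arrays limits the precision. The members and lists were chosen with earlier results of these data known. Every member was named, and of each other list up to 4 genes furthest from a ratio of 1, besides 3 markers for the label check, chosen after their values were seen. Promoter windows came from RefSeq. Steps were tested on simulated data. Alternatives were scaling by the median, quantiles or loess (span 0.4), floors for low signals, other probe set rules, filters and thresholds; scaling to the hybridization controls was added after the data were examined. Calculations used pandas 2.3.3 and numpy 2.4.6 under Python 3.11.15, with statsmodels 0.14.6 for loess, scipy 1.17.1 and, for figures, matplotlib 3.10.9.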

Additional observations from a re-analysis of the deposited data

How the results depend on the processing

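The count of 5 chaperone genes at least 2-fold higher was 4 after division of each array by its median (Stip1 lost), 5 after quantile or loess scaling, 4 without probe sets shared by several transcripts (Hsph1 then had none left), and 7 without a signal filter (Hspa1l and Hspb1 gained). It was 11 at a 1.5-fold and 3 at a 3-fold threshold, and 9 when the arrays were scaled to the hybridization controls, an alternative chosen after seeing the data. The count of 2-fold lower genes was 1 when all probe sets of a gene were averaged (Cct8, through a dim probe set), and the median log2 ratio of the co-chaperones and regulators then was 0.60 in place of 0.29. The medians of the 4 other classes moved by less than the probe set yardstick (SD 0.26) under all alternatives run. Over all genes, 155 higher and 31 lower became 209 and 72 with probe sets averaged, 1266 and 1105 unfiltered, 70 and 5 under a filter on the 75th percentile, 111 and 11 with a floor at the 50th percentile, 111 and 47 after quantile scaling, 117 and 41 after loess, 491 and 225 at 1.5-fold and 35 and 3 at 3-fold. No paired analysis was possible because each group has 1 array. Low signals limit the comparison of Hspa1l, Hspa2, Hspb1, Hspb8 and Hsf2, which did not reach the filter, and of Bag3, which reached it on 1 array.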
